A study of Homo sapiens with 6 samples.

Results

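The sgRNAs described here were aimed at human zinc-finger protein genes and were chosen by name alone, as every row of the count table whose target symbol starts with ZNF and a digit. There were 2683 of them for 497 ZNF genes, among 107237 listed sgRNAs. As a comparison class, aimed at odorant receptors of the nose, the table held 2035 sgRNAs for 372 olfactory receptor (OR) genes. The screen was done in MDA-MB-231, an established human line of triple-negative breast cancer with high EGFR, which stably expressed Cas9 and was transduced at an MOI of 0.3 with the GeCKO v2 knockout library, so that most cells carry a single sgRNA. All cells, controls included, were selected with puromycin at 1 µg/mL for 7 days. They were then kept for 7 days in vehicle (DMSO) or in 10 µM erlotinib, a small molecule that blocks the EGFR kinase, and sgRNAs were amplified from genomic DNA and sequenced in 3 libraries per condition. The question of the screen was which sgRNAs are lost in erlotinib.

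The labels name the samples' cell line only as ERL and their molecule as polyA RNA, whereas the protocol describes amplified sgRNAs from MDA-MB-231 DNA, and the protocol was followed. The study's statistics section describes its biological replicates in general as separate cultures handled on separate days, but no source used here says so for the 3 libraries of a condition in the screen. The p-values therefore measure only the spread between libraries, which may be technical. By the library names, each condition had its own reverse primer, so that primer and condition cannot be told apart, and libraries with the same replicate number shared a forward primer. Library totals ranged from 1574743 to 4263494 counts in DMSO and from 1773235 to 3332895 in erlotinib. A count of 0 allows up to 3 counts. As CPM, the count relative to its library's total, this limit lay between 0.704 and 1.91 for DMSO and between 0.900 and 1.69 for erlotinib. Such limits, like all intervals below, reflect the error of counting alone, because amplified reads that carry no molecular identifier do not each stand for a separate molecule.

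ZNF genes make up the largest family of human transcription factors. Their proteins carry arrays of C2H2 zinc fingers, small folds around a zinc ion that each read a few bases of DNA, and many also carry a KRAB domain, which recruits the corepressor TRIM28 and through it the histone methyltransferase SETDB1 to silence retroelements and other targets. The KRAB genes expanded by repeated duplication, above all on chromosome 19, so that neighbouring members are close in sequence.

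The sgRNAs with the highest counts in an erlotinib library are shown first, because a small number of sequences carried most of the ZNF counts there. Each is written 5′ to 3′ with the 12 bases next to the PAM in capitals, the stretch in which Cas9 tolerates mismatches least.
ZNF284: ctgaccaaAGCTATTACTAC
ZNF497: caaggcctTCGTGCGTGTGG
ZNF79: cgccttccCTTTGTTCCAAC
ZNF285: aatgaagcACTTCTTGCGAA
ZNF461: aatgcctgAACCCAGCGCAG
ZNF735: taactgctCCTCAACTGTAA
ZNF502: attagaagAGAGACTTGTCC
ZNF618: gccgatcaCCACGCAGATCT
ZNF555: tgtgtgtcTTCGAAACGTTG
The ZNF177 and ZNF148 sgRNAs below had counts in 2 erlotinib libraries each, and the ZNF841 and ZNF69 sgRNAs were among the most abundant in DMSO and had no count in erlotinib.
ZNF177: tcttaccgTGTTTATGCCAT
ZNF148: ccagtgtgAATACTGTTTAC
ZNF841: ccttgccgCATTCGTTACAC
ZNF69: tcatgtgaCAGCTTTGTGTG

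Most ZNF sgRNAs were seen in at least 1 DMSO library and few were seen in erlotinib. DMSO replicates 1 to 3 held 1048, 931 and 928 of the 2683 ZNF sgRNAs with at least 1 count, which is 39.1% (95% Wilson interval 37.2 to 40.9), 34.7% (32.9 to 36.5) and 34.6% (32.8 to 36.4). Erlotinib replicates 1 to 3 held 62, 58 and 66, which is 2.31% (1.81 to 2.95), 2.16% (1.68 to 2.78) and 2.46% (1.94 to 3.12). The libraries of the 2 conditions did not overlap. The mean and SD of the 3 libraries were 36.1% ± 2.55 with DMSO and 2.31% ± 0.149 with erlotinib, 33.8 percentage points apart, with an exact two-sided permutation p of 0.1. This is the smallest p that 3 against 3 libraries allow, and it came to 0.3 after Benjamini-Hochberg adjustment over the 6 comparisons of shares made here. All listed sgRNAs stood at 35.9% ± 3.02 in DMSO and 1.96% ± 0.159 in erlotinib (SD, n = 3).

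ZNF and OR sgRNAs were compared within each library, where both share the same depth. In DMSO replicates 1 to 3, OR sgRNAs were detected at 40.9%, 35.3% and 38.0%, and the difference, ZNF minus OR, was -1.87, -0.583 and -3.40 points. The mean difference was -1.95 ± 1.41 points (SD, n = 3). Its sign was the same in 3 of 3 libraries, and the exact two-sided sign-flip permutation p was 0.25, the smallest that 3 differences allow (adjusted 0.375). In erlotinib, OR sgRNAs were at 2.31%, 1.82% and 2.21%, and the ZNF share was higher by 0.00126, 0.344 and 0.249 points, on average 0.198 ± 0.177 (SD, n = 3; exact permutation p = 0.25, adjusted 0.375). The ratio of the ZNF to the OR share, on the log2 scale, was -0.07, -0.02 and -0.14 in DMSO and 0.000789, 0.25 and 0.15 in erlotinib. The ZNF class thus stood lower against OR in each DMSO library and level with it or higher in each erlotinib library, a difference of 0.21 on the log2 scale (exact two-sided permutation p = 0.1, adjusted 0.3).

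Of the 2683 ZNF sgRNAs, 1844 (68.7%) had a count in at least 1 DMSO library and 807 (30.1%) had none in any library. The DMSO libraries shared few of them: 997 of the 1844 were in a single DMSO library, 631 in 2 and 216 in all 3. The erlotinib libraries shared fewer still, with 156 of 171 ZNF sgRNAs in a single library, 15 in 2 and 0 in all 3. Of those 171, 32 (18.7%) had no count in any DMSO library. The whole table was close to this, with 29.7% of all listed sgRNAs at 0 in every library. Of those in DMSO, 55.5%, 33.5% and 11.1% were in 1, 2 and 3 libraries, against 54.1%, 34.2% and 11.7% for ZNF. Of those in erlotinib, 90.9% were in a single library (ZNF 91.2%) and 21.7% had no DMSO count.

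ZNF sgRNAs seen in more DMSO libraries were seen more often in erlotinib, and so were all listed sgRNAs. Of 839 ZNF sgRNAs in no DMSO library, 3.81% had a count in erlotinib, against 5.32% of the 997 in a single DMSO library and 8.56% of the 631 in 2. Of the 216 in all 3, 32 were found in erlotinib, which is 14.8% (95% Wilson interval 10.7 to 20.2). Among OR sgRNAs in all 3 DMSO libraries the number was 10 of 177, or 5.65% (3.10 to 10.1), and among all listed sgRNAs it was 9.31%. With 0, 1 and 2 DMSO libraries the share was 3.79%, 4.98% and 6.89% of all listed sgRNAs, and 4.56%, 4.73% and 9.11% of OR sgRNAs. OR thus stood above ZNF with 0 and 2 DMSO libraries and below it with 1 and 3. These shares are descriptions, since sgRNAs of a library share its cells and its depth, and the difference between the classes was not tested.

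By gene, 275 of the 497 ZNF genes had 6 listed sgRNAs, 161 had 5, 49 had 4, 8 had 3 and 4 had 2. Every ZNF gene had at least 1 sgRNA with a DMSO count. The number of sgRNAs seen in DMSO per gene was 3.71 on average, against 3.94 for OR genes, and all listed sgRNAs were seen for 60 ZNF genes (12.1%) and 66 OR genes (17.7%). In erlotinib, 354 ZNF genes had no sgRNA, 119 had 1, 21 had 2, 2 had 3 and 1 had 4. OR genes were similar, with 73.4% at 0, 21.2% at 1 and 5.38% at 2, against 71.2%, 23.9% and 4.23% of ZNF genes.

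Where a ZNF gene was seen in erlotinib, it was mostly through a single sgRNA, while other sgRNAs of the gene were seen only in DMSO. The 143 ZNF genes with a count in erlotinib had 779 listed sgRNAs, of which 171 were seen in erlotinib. Of the other 608, 417 (68.6%) were seen in DMSO, and 141 of the 143 genes had at least 1 such sgRNA. That share was near the 68.7% of all ZNF sgRNAs and the 69.2% of all listed sgRNAs seen in DMSO. In the 24 genes with 2 or more sgRNAs in erlotinib, the leading sgRNA held 49.2% to 100.0% of the gene's erlotinib counts (median 83.4%), and 13 ZNF genes had 2 or more sgRNAs in the same erlotinib library. By library, 1.01%, 0.604% and 1.01% of ZNF genes had 2 or more sgRNAs in erlotinib replicates 1 to 3, against 0.269%, 0.269% and 1.08% of OR genes. The leading sgRNA's share and the other sgRNAs of a gene were not examined for OR genes or the whole table.

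The counts behind a detected ZNF sgRNA were even in DMSO and uneven in erlotinib. Its median count was 86, 48 and 31 in the DMSO libraries, in replicate order, and 96, 152.5 and 300 in the erlotinib libraries. The highest ZNF count was 569, 412 and 291 in DMSO, against 13519, 4037 and 15963 in erlotinib. The 10 most abundant ZNF sgRNAs held 4.23% to 5.87% of the ZNF counts in the DMSO libraries and 74.4% to 79.2% in the erlotinib libraries. These 10 were out of 928 to 1048 detected per DMSO library and 58 to 66 per erlotinib library. Part of the gap in share thus goes with the number detected. The share was not examined for OR sgRNAs or the whole table. At the other end, 22.6%, 15.5% and 12.1% of the ZNF sgRNAs in erlotinib replicates 1 to 3 had at most 3 counts, against 5.59% to 7.76% in DMSO. OR sgRNAs were uneven in erlotinib too. Of these, 14.9%, 13.5% and 13.3% had at most 3 counts there, against 5.57% to 7.89% in DMSO, and their highest erlotinib counts were 10720, 15002 and 8782. ZNF sgRNAs, 2.50% of those listed, made up 2.51% ± 0.0418 of all counts in DMSO and 2.89% ± 1.03 in erlotinib (SD, n = 3).

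The most abundant ZNF sgRNAs of the erlotinib libraries were mostly abundant in a single library. Counts are given for replicates 1, 2 and 3 of each condition in that order, here and from here on. The ZNF284 sgRNA had 66, 38 and 80 counts in DMSO and 0, 0 and 15963 in erlotinib. The ZNF79 sgRNA had 120, 100 and 69 in DMSO and 0, 0 and 13547 in erlotinib. Both were present in every DMSO library and absent from 2 of 3 erlotinib libraries. The ZNF285 sgRNA had 0, 23 and 32 counts in DMSO and 13519, 0 and 0 in erlotinib. The ZNF735 sgRNA had 1, 265 and 0 in DMSO and 12085, 0 and 0 in erlotinib. A ZNF705B sgRNA had 152, 0 and 31 in DMSO and 0, 0 and 12817 in erlotinib. Of these 3, 2 had their erlotinib counts in replicate 1 alone and 1 had them in replicate 3 alone.

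Of the 15 ZNF sgRNAs seen in 2 erlotinib libraries, 9 had a smaller count of 1 or 2 and 6 had a smaller count above 2. The ZNF461 sgRNA belonged to the 9, with 2, 0 and 12288 counts in erlotinib and 0, 0 and 1 in DMSO. So did those of ZNF627 (1, 4037 and 0 in erlotinib), ZNF883 (1, 3383 and 0) and ZNF782 (1, 0 and 6151), and a ZNF23 sgRNA (1, 1714 and 0). In all 9 the small count was in erlotinib replicate 1, the library with the most ZNF sgRNAs at up to 3 counts (14, against 9 and 8 in replicates 2 and 3). Over all listed sgRNAs with such a pair of counts it was there for 300 of 319, and what sets these small counts was not tested. With at least 10 counts required in each library, 6 of 146 ZNF sgRNAs were in 2 erlotinib libraries, against 1 of 104 OR sgRNAs and 150 of 5024 over all listed sgRNAs. The order of the classes depended on this threshold: with at least 3 counts it was 6 of 150 ZNF and 6 of 109 OR sgRNAs, and with at least 1 count 15 of 171 and 10 of 119.

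These 6 were the sgRNAs of ZNF177, ZNF555, ZNF148, ZNF618, ZNF502 and ZNF436. The ZNF177 sgRNA was abundant in every DMSO library, with 230, 412 and 136 counts, and had 1955, 3281 and 0 in erlotinib. The ZNF618 sgRNA had 83, 0 and 111 in DMSO and 1097, 0 and 8538 in erlotinib. The ZNF502 sgRNA had 1, 0 and 181 in DMSO and 0, 30 and 10353 in erlotinib. The sgRNAs of 2 genes had no DMSO count at all: that of ZNF555 had 7477, 0 and 363 in erlotinib, and that of ZNF148, which encodes a Krüppel-type regulator of transcription, had 2631, 625 and 0. Each of the 6 was at 0 in 1 erlotinib library.

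Other sgRNAs of the same genes differed in whether they had erlotinib counts. A second ZNF618 sgRNA had 303 counts in erlotinib replicate 3, a second ZNF148 sgRNA had 404 in replicate 2 and a second ZNF436 sgRNA had 1449 in replicate 3, each in a library that held the first. The following examples of the opposite were, like these, chosen after their values were seen. A second ZNF177 sgRNA had 129, 21 and 172 counts in DMSO and 0 in every erlotinib library. A second ZNF497 sgRNA had 286, 225 and 85 in DMSO and 0 in erlotinib, whereas the ZNF497 sgRNA shown above had 59, 0 and 39 in DMSO and 0, 0 and 15445 in erlotinib. For ZNF627, 2 sgRNAs with 298, 126 and 0 and with 260, 91 and 0 counts in DMSO were at 0 in erlotinib. In ZNF177, ZNF497 and ZNF627, an sgRNA with high erlotinib counts thus stood beside others at 0. ZNF184 had the most sgRNAs in erlotinib, 4 of 6 listed, with erlotinib counts per gene of 0, 514 and 1670 against 222, 400 and 125 in DMSO. ZNF148 and ZNF713 had 3 each. The 4 sgRNAs of ZNF184 were 3 in replicate 3 and 1 in replicate 2, and none of them was in both.

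At the level of single sgRNAs, 1876 ZNF sgRNAs had a count and were tested within 74555 targeting sgRNAs. Of these 1876, 1705 entered through DMSO counts alone and 32 through erlotinib counts alone. The direction of both was set beforehand, so that calls among them, lower or higher, are descriptions. By edgeR's quasi-likelihood test at an adjusted p under 0.05, 0 ZNF sgRNAs were lower and 0 higher in erlotinib (0% of all sgRNAs tested in either direction), with a smallest adjusted p of 0.0998. At an unadjusted p under 0.05 the same test gave 586 ZNF sgRNAs lower (31.2%, against 31.2% of all tested) and 11 higher (0.586%, against 0.699%). The likelihood ratio test named in the study's methods gave 671 lower (35.8%, against 36.6%) and 13 higher (0.693%, against 0.84%) at an unadjusted p under 0.05, and 0 in either direction after adjustment (0% of all, smallest adjusted p 0.0755). ZNF shares thus lay at or below those of the whole table. Both counts depended on single libraries and on the settings. The quasi-likelihood test called 267 of 1588 ZNF sgRNAs lower without DMSO replicate 2 (10794 of 63006 over all sgRNAs tested). Without DMSO replicate 3 it called 332 of 1577 (13252 of 62325), and without DMSO replicate 1 it called 0 of 1519 (0 of 59471). Where a count in at least 2 libraries was required, it called 439 of 903 (17200 of 34561). The likelihood ratio test called 440 of 1864 without erlotinib replicate 1 (17195 of 74178 over all). Without erlotinib replicate 3 it called 404 of 1866 (15515 of 74133). It called 155 of 220 after edgeR's filterByExpr (6002 of 7880) and 98 of 1876 with the replicate number as a block (4149 of 74555).

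The ZNF sgRNAs with the smallest p on the lower side were those of ZNF296 (393, 57 and 13 DMSO counts), ZNF177 (the second sgRNA above), ZNF550 (1, 77 and 194), ZNF672 (0, 118 and 157) and ZNF627 (298, 126 and 0). All 5 were at 0 in erlotinib. Those on the higher side were the sgRNAs of ZNF569 (519 counts in erlotinib replicate 2), ZNF436 (1449 in replicate 3), ZNF212 (1046 in replicate 3), ZNF337 (1 in replicate 1 and 964 in replicate 3) and ZNF155 (1078 in replicate 1). These 5 were at 0 in every DMSO library, and 4 of them rested on a single erlotinib library. Their direction was thus set beforehand, as was that of the 5 on the lower side.

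With counts summed over the sgRNAs of a gene, 334 of 497 ZNF genes (67.2%) were lower in erlotinib by edgeR's quasi-likelihood test at an adjusted p under 0.05, against 66.1% of all 20409 genes and microRNAs and 67.6% of OR genes. No ZNF gene was higher (0 of 497, also at an unadjusted p under 0.05, against 0.0049% of all at either threshold). At an unadjusted p under 0.05, 361 (72.6%) were lower, against 70.9% of all. The ZNF share was near that of the whole table. With the replicate number, and so the forward primer, as a block, no gene was called lower, 0 of the 497 ZNF genes and 0 of all 20409, so that every call of a lower gene given below is lost with it. Of the 334, 315 had no count in any erlotinib library and 19 had some, and a further 39 genes without an erlotinib count were not called. Genes without an erlotinib count entered the test through DMSO counts alone. Their direction was set beforehand, so calls among them, here and in the lists below, are descriptions. The log2 fold change was above 0 for 47 ZNF genes. Its median was -10.21 over ZNF genes, -10.13 over all and -10.40 over OR genes, values that depend on the prior count added to zeros.

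For the 354 ZNF genes with no count in erlotinib, the mean DMSO CPM was set over a floor of 3 counts per erlotinib library. This bounds the fold on the erlotinib side only, since the DMSO mean enters without its spread between libraries. Each fold given as at least a value, here and below, is relative to that DMSO mean. The bounds ran from 2.34 to 125 with a median of 32.9. The lowest, that of ZNF131, rests on DMSO counts of 0, 21 and 0, and 39 of the 354 genes were not called. ZNF230 stood at the top, with 642, 424 and 262 DMSO counts, and was at least 125-fold lower in erlotinib. These genes were taken because they were at 0 in erlotinib, so no p-value is set beside their folds. ZNF606 was at least 113-fold lower and ZNF841 at least 108-fold lower. All 3 had 5 or 6 sgRNAs in DMSO and none in erlotinib.

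The 8 ZNF genes with the smallest gene-level p on the lower side had counts in every DMSO library. ZNF674 had 237, 64 and 118 counts in DMSO and 0, 0 and 1 in erlotinib. ZNF703, a transcriptional cofactor amplified in luminal breast tumours, had 254, 178 and 109 in DMSO and 0 in erlotinib, at least 51.4-fold lower. ZNF419, ZNF619, ZNF669, ZNF146, ZNF594 and ZNF546 completed this group, with 4 to 6 sgRNAs in DMSO, 0 counts in erlotinib and bounds of 49.3 to 56.7. On the other side, the 8 genes with the smallest p had higher summed counts in erlotinib and none passed the test, with adjusted p-values of 0.401 to 0.487 by edgeR. They were ZNF587B, ZNF75D, ZNF502, ZNF771, ZNF705B, ZNF461, ZNF618 and ZNF148. ZNF771 had 79, 36 and 71 counts in DMSO and 2851, 0 and 0 in erlotinib. ZNF587B had 2, 53 and 43 in DMSO and 0, 2464 and 0 in erlotinib. In both, 1 sgRNA in 1 erlotinib library carried the erlotinib counts.

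Abundance in DMSO varied widely from gene to gene. Among the 485 ZNF genes with at least 4 listed sgRNAs, the mean DMSO level per listed sgRNA had a median of 8.59 CPM, with quartiles at 5.98 and 11.9 CPM, against 9.26 for 361 OR genes and 8.53 for 18921 symbols in all. The highest were ZNF841 (29.3 CPM), ZNF221 (28.4), ZNF230 (28.3), ZNF208 (28.2), the readthrough ZNF559-ZNF177 (27.1), ZNF606 (25.7), ZNF565 (25.3) and ZNF728 (24.2). The lowest were ZNF414 (0.126), ZNF131 (0.635), ZNF787 (0.904), ZNF384 (1.05), ZNF589 (1.11), ZNF16 (1.19), ZNF850 (1.41) and ZNF689 (1.52). ZNF414 had 7, 0 and 1 counts over 6 sgRNAs in DMSO and 0, 0 and 30 in erlotinib. The SD between libraries was of the order of the mean for several of these genes: ZNF208 was at 169 ± 158 CPM and ZNF131 at 3.17 ± 5.50 CPM (SD, n = 3).

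Next, 5 lists of ZNF genes with known roles, and the KRAB corepressors were followed, all put together with earlier results of these data known. Of 5 ZNF genes whose loss slows most cell lines, 3 were called lower in erlotinib, 0 higher and 2 not called, where 66.1% of all genes were called lower. ZNF207, a kinetochore protein that loads the checkpoint factor BUB3, had 23, 34 and 108 counts in DMSO, ZNF335, a regulator of neural progenitors mutated in microcephaly, had 98, 37 and 77, and ZNF830, a spliceosome component, had 0, 91 and 50. All 3 were at 0 in erlotinib. Of the 21 sgRNAs listed for the 5 genes, 10 (47.6%) were seen in DMSO, against 68.7% of all ZNF sgRNAs. Their median DMSO level was 5.96 CPM per listed sgRNA, against 8.69 over all 497 ZNF genes, in a range of 0.635 to 7.39. ZNF131 (0, 21 and 0 counts in DMSO, 0 in erlotinib) and ZNF574 (1, 46 and 0 in DMSO, 221, 0 and 0 in erlotinib) were not called.

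Among 10 chromatin and promoter factors, 7 were called lower and 3 not called, against 66.1% called lower over all genes. ZNF143, an activator at promoters, had 226, 101 and 0 counts in DMSO, and its close relative ZNF76 had 334, 38 and 135. ZNF410, which activates the NuRD gene CHD4, had 307, 42 and 32. All 3 were at 0 in erlotinib and called lower, with bounds of at least 24.3-fold, 44.5-fold and 27.3-fold. The 3 not called were ZNF592 (47, 0 and 58 in DMSO, 0 in erlotinib), ZNF462 (206, 0 and 44 against 0, 155 and 0) and ZNF827, which brings NuRD to telomeres (395, 97 and 120 against 19, 0 and 0). ZNF217, an oncogene amplified in breast cancer, had all 6 sgRNAs in DMSO with 264, 113 and 255 counts, none in erlotinib, and was at least 67.6-fold lower.

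Of 9 KRAB repressors of retroelements and imprints, 8 were called lower and ZNF587 was not, against 66.1% called lower over all genes. ZNF91 and ZNF93, which silence SVA and LINE-1 elements, had 194, 193 and 0 and 147, 178 and 68 counts in DMSO. ZNF10, the source of the KRAB domain fused to dead Cas9 in CRISPR interference, had 221, 381 and 111, and ZNF445, a guardian of imprints, had 1, 63 and 72. These 4 were at 0 in erlotinib, with bounds of 18.3-fold for ZNF445 to 72.5-fold for ZNF10. ZNF587 had 248, 105 and 89 counts in DMSO and 21, 0 and 0 in erlotinib (adjusted p = 0.0702 by edgeR).

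Of 7 genes tied to breast cancer or signaling, 6 were called lower and 0 higher, against 66.1% called lower over all genes. In DMSO 32 of their 38 sgRNAs (84.2%) were seen, against 68.7% of all ZNF sgRNAs, a difference that was not tested. ZNF366, a corepressor of the estrogen receptor, had 114, 16 and 266 counts in DMSO, and ZNF341, an activator of STAT3 expression, had 100, 250 and 37. ZNF750, a regulator of epidermal differentiation, had 255, 86 and 5. These 3 were at 0 in erlotinib. ZNF365 was not called, with 321, 109 and 39 in DMSO and 97, 0 and 0 in erlotinib (adjusted p = 0.302 by edgeR). Of 7 genes of inherited disease, 5 were called lower and ZNF41 and ZNF469 were not, where the share over all genes was 66.1%. ZNF711, linked to X-linked intellectual disability, had 383, 372 and 34 counts in DMSO and 0 in erlotinib. ZNF469, mutated in brittle cornea syndrome, had 470, 114 and 72 in DMSO and 20, 0 and 0 in erlotinib.

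The KRAB corepressors, the pathway through which many ZNF proteins act, held 76 listed sgRNAs for 14 genes. Of the 14, 7 were called lower, 0 higher and 7 not called, where 66.1% of all genes were called lower. TRIM28, the scaffold that binds KRAB, had 338, 88 and 179 counts in DMSO and 0 in erlotinib, and the heterochromatin protein gene CBX5 had 318, 220 and 267 and 0. Both were called, at least 57.2-fold and 84.4-fold lower. SETDB1, the methyltransferase, had 243, 57 and 144 in DMSO and 1789, 0 and 0 in erlotinib, and the ATPase gene MORC2 had 311, 128 and 94 and 1302, 0 and 0. HDAC2 had 370, 124 and 14 in DMSO and 0, 1427 and 0 in erlotinib. These 3 were not called, and each had 1 sgRNA in 1 erlotinib library. So had ATF7IP, also not called (85, 351 and 66 in DMSO, 0, 0 and 238 in erlotinib). The others not called were CBX3 (38, 34 and 0 in DMSO), PPHLN1 (37, 25 and 2) and CHD4 (85, 0 and 0). They were at 0 in erlotinib and at 1.35, 1.18 and 1.33 CPM per listed sgRNA in DMSO. The median log2 fold change over the corepressors was -8.96, against -10.13 over all genes tested. Over the 5 ZNF lists it was -9.62 for genes that most cell lines need, -10.32 for chromatin and promoter factors, -10.71 for KRAB repressors, -10.85 for breast cancer and signaling, and -9.68 for inherited disease.

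Because ZNF genes arose by duplication, some sgRNAs for different genes are nearly the same. Of the ZNF sgRNAs, 114 (4.25%) had an sgRNA of another symbol within 1 mismatch, 234 (8.72%) within 2 and 390 (14.5%) within 3, against 81 (3.98%), 108 (5.31%) and 184 (9.04%) of the OR sgRNAs. Of the 114, 112 had a ZNF partner. The pairs below differ at 1 position, in capitals, and are shown with the substitution from the upper to the lower sequence, with positions counted from 1 at the 5′ end. The first is T13C, the second A11G, the third A12C, the fourth C18T, the fifth C1T and the sixth G18A.
ZNF100: ctcatgtctcttTatattcc
ZNF208: ctcatgtctcttCatattcc
ZNF208: tccagggatcAttgacattt
ZNF728: tccagggatcGttgacattt
ZNF417: aacctcgttcaAcatcagcg
ZNF587: aacctcgttcaCcatcagcg
ZNF33B: ctttaaatgatactgacCcc
ZNF33A: ctttaaatgatactgacTcc
ZNF627: Cacccttacctacagaagcc
ZNF625: Tacccttacctacagaagcc
ZNF528: ttgatgcactccctgccGtc
ZNF534: ttgatgcactccctgccAtc

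Near-identical sgRNAs had counts of their own in DMSO. In the first pair, ZNF100 had 321, 0 and 32 DMSO counts and ZNF208 had 234, 0 and 269. In the second, ZNF208 had 134, 44 and 133 and ZNF728 had 243, 117 and 126, whereas in the third ZNF417 was at 0 throughout and ZNF587 had 86, 79 and 60. The partners were thus at like counts in some pairs and far apart in others. In erlotinib, 3 of the pairs held a high and a minimal count in the same library. The ZNF33B sgRNA had 673 counts in replicate 1 and its ZNF33A partner had 1. In replicate 2, the ZNF627 sgRNA had 4037 and its ZNF625 partner 1, and the ZNF528 sgRNA had 1992 and its ZNF534 partner 1. How many mismatches the counting allowed is not given in the sources used here, so reads of such pairs may be split between them and their single counts are uncertain.

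The 114 ZNF sgRNAs with a 1-mismatch partner were detected at 39.5%, 39.5% and 41.2% in the DMSO libraries, against 39.0%, 34.5% and 34.3% of the other ZNF sgRNAs. In erlotinib they were at 4.39%, 7.02% and 1.75%, against 2.22%, 1.95% and 2.49%. These erlotinib shares rest on 5, 8 and 2 sgRNAs, and they were above the others in 2 of 3 libraries.

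Neighbouring zinc fingers are joined by a linker whose protein sequence, TGEKP, is nearly the same in many ZNF proteins. The search was for GAGAAACC and GAGAAGCC, which code for the core of this linker, and for the reverse complements GGTTTCTC and GGCTTCTC, on the sgRNA as listed. Among the 2683 ZNF sgRNAs, 9 held a match (0.335%), against 0.197% of OR sgRNAs and 0.110% of all listed. A match within an sgRNA is a match of letters and not a site by itself. Examples are shown with the matched letters in capitals.
ZNF22: aaGAGAAGCCtcgtaaaacc
ZNF652: aGAGAAGCCctttagatgcg
ZNF664: GAGAAACCctatagatgttg
ZNF585B: GGTTTCTCtgagaaaggtcc
ZNF322: tatacGGCTTCTCacctgtg
The 9 sgRNAs were detected in DMSO 28.0 and 1.37 points less often and 9.89 points more often than the other ZNF sgRNAs in replicates 1 to 3, on average -6.51 ± 19.5 points (SD, n = 3; exact permutation p = 0.75, adjusted 0.75). A difference was not detectable with so few sgRNAs, and the sign depended on DMSO replicate 1, without which the mean was 4.26 points. The ZNF322 sgRNA had 0, 68 and 17 counts in DMSO and 1431, 0 and 0 in erlotinib, while those of ZNF44 and ZNF664 were at 0 in every library.

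On chromosome 19, by the symbols' match to the human RefSeq annotation, lay 241 of the 497 ZNF genes (48.5%) with 1288 sgRNAs, and chromosome 7 followed with 33 and chromosome 16 with 31. In DMSO, ZNF sgRNAs on chromosome 19 were detected at 36.6% ± 1.40 and those on other chromosomes at 35.7% ± 3.62 (SD, n = 3). The difference was -1.78, 2.75 and 1.54 points in replicates 1 to 3, on average 0.839 ± 2.35 (exact sign-flip permutation p = 0.75, adjusted 0.75), and the mean was -0.118 without DMSO replicate 2. In erlotinib the shares were 1.99% ± 0.119 and 2.61% ± 0.396 (SD, n = 3), with no test made. Base composition went with small differences in DMSO: ZNF sgRNAs of up to 35% GC were detected at 37.2% ± 1.25, those of 40 to 60% at 36.4% ± 2.59 and those of 65% or more at 33.8% ± 4.34 (SD, n = 3), all within the spread between libraries.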

How the data were processed

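The deposited table holds, per the labels and its header, raw read counts made by the authors, per sgRNA of 20 bases and library, with sgRNAs at 0 in every library listed. The counting program, its mismatch allowance and the genome build are not given in the sources used here. Each library's condition was taken from its treatment label. An sgRNA was detected at 1 count or more, and detection was compared with exact permutation tests over libraries. After non-targeting sgRNAs were removed, as in the study's methods, the targeting sgRNAs with a count, and counts summed per gene, were tested in edgeR 4.0.16 (R 4.3.3, limma 3.58.1) with upper-quartile normalization (quantile 0.99) and Benjamini-Hochberg adjustment over the whole table, called at 0.05. The study's low-count filter dropped nothing with a count. Tables were made with Python 3.11.15, numpy 2.4.6, pandas 2.3.3 and scipy 1.17.1. CPM are counts scaled to the library total, and folds against 0 use a floor of 3 counts per library. Fitted log2 fold changes used the default prior count of edgeR's fitting functions, as no other was set.

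Members were taken by symbol alone, whereas the lists were put together with earlier results of these data known. Named were list members; up to 10 ZNF genes with the most sgRNAs in erlotinib; the 8 highest and 8 lowest in DMSO CPM per sgRNA among genes with at least 4; up to 10 sgRNAs with the highest erlotinib count and up to 10 in 2 erlotinib libraries; the 5 most abundant in all DMSO libraries; and by p the first 8 genes and 5 sgRNAs in each direction. The partner sgRNAs and the second sgRNAs of ZNF177, ZNF497 and ZNF627 were chosen after their values were seen. RefSeq symbols (GRCh38.p14) placed 496 of 497 ZNF symbols on a chromosome, 492 by current symbol. No genome or protein sequence was used, so sgRNAs have no coordinates and KRAB and other ZNF genes were not compared. Alternatives were other detection thresholds, equal depth, GC weighting, normalizations, filters, DESeq2 1.42.0, the replicate block and leaving out each library. Only the edgeR fit of single sgRNAs was run on simulated counts. These had less spread between libraries than the data, with dispersions below the common value of 9.74 fitted here. That run does not bear on the permutation tests, the gene sums, the replicate block or DESeq2.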

Additional observations from a re-analysis of the deposited data

How the results depend on the processing

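The comparison of detection between DMSO and erlotinib and those between ZNF and OR sgRNAs kept their direction under every alternative run, but not their size: with at least 3 counts the erlotinib difference was 0.0544 ± 0.286 points (exact permutation p = 1) and the log2 ratio 0.12 (p = 0.4), and the DMSO difference was -1.23 points without DMSO replicate 3 and the erlotinib difference 0.125 points without erlotinib replicate 2. Replicate numbers, which go with the forward primer, did not pair the libraries by their counts: deviations of same-numbered libraries correlated at 0.000223, -0.00389 and 0.00297. With the number as a replicate block, the detection difference stayed at 33.8 points (exact permutation p = 0.25) and the log2 ratio at 0.21 (p = 0.25). With this block, the quasi-likelihood test called 0 ZNF sgRNAs and 0 genes lower. The likelihood ratio test called 98 of 1876 ZNF sgRNAs (4149 of 74555 over all). With a count in at least 2 libraries required, the quasi-likelihood test called 439 of 903 ZNF sgRNAs (17200 of 34561 over all), against 0. Under filterByExpr it called 153 of 220 (5988 of 7880), and 0 to 332 when each library was left out in turn. It called 267 of 1588 without DMSO replicate 2 (10794 of 63006) and 332 of 1577 without replicate 3 (13252 of 62325). DESeq2's Wald test called 350 of 1876 (14011 of 74555). Under filterByExpr the likelihood ratio test called 155 of 220 (6002 of 7880), against 671 of 1876 (27301 of 74555). When each library was left out it called 404 to 683. The count was 440 of 1864 without erlotinib replicate 1 (17195 of 74178) and 404 of 1866 without replicate 3 (15515 of 74133). Apart from the block, the count of ZNF genes was 252 to 372, against 334 of 497 (13496 of 20409 over all). The lowest was 252 of 370 under filterByExpr (10378 of 14460) and the highest 372 of 497 with DESeq2 (14965 of 20409). Leaving out each DMSO library moved the linker-motif difference from -14.7 to 4.26 points, reversed without replicate 1, and the chromosome 19 difference from -0.118 to 2.15, reversed without replicate 2. The cause of these shifts was not tested. Scaling moved the median log2 fold change of all sgRNAs, -8.34 here, to -8.95 with TMM, -7.53 with library totals and -9.24 with DESeq2 factors. The comparison of KRAB with other ZNF genes and its alternatives were not run. Few sgRNAs per erlotinib library (58 to 66) limit every statement on that condition.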
